A study of Mus musculus with 18 samples.

Results

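The endothelial cells (ECs) of implanted breast tumours were compared with those of spontaneous MMTV-PyMT breast tumours after both kinds of tumour had received the STING agonist cGAMP. The 6 libraries were chosen by their labelled tumour type and injection, 3 implanted and 3 MMTV-PyMT, out of 18 libraries in all. The 18 libraries formed 6 groups of 3, made of normal mammary fat pads, MMTV-PyMT tumours and implanted tumours, each injected with PBS or cGAMP. Of these, the 6 tumour libraries under PBS served as a background measured in the same way, and the 6 fat pad libraries entered only the shared estimate of the spread.

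All mice were FVB females. In the MMTV-PyMT genotype, the promoter of the mouse mammary tumour virus drives the polyoma middle T oncogene in the mammary epithelium, and the tumours grew in place from that epithelium. The implanted tumours grew in the fat pads of wild type FVB females from transferred MMTV-PyMT tumour cells, which had been depleted of fibroblasts and kept in culture for a short time beforehand. The ECs of the implanted tumours therefore came from hosts without the transgene but with an intact immune system. No age is given in the labels, and by the study's methods the hosts received the cells at about the age at which the MMTV-PyMT females entered treatment. Both tumour types were injected into the tumour with 3'3'-cGAMP dissolved in PBS, or with PBS alone in the background groups, and were harvested 3 h later. ECs were enriched on anti-CD31 beads and sorted as live cells positive for CD31 and negative for the leukocyte antigen CD45. Each group held 3 mice from 3 independent experiments, and no source states which library came from which experiment, so no experiment term could be fitted.

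STING is an adaptor of the endoplasmic reticulum that binds cyclic dinucleotides and passes the signal through the kinase TBK1 to the transcription factor IRF3 and to NF-kB. The type I interferons made in response, together with interferon-gamma from lymphocytes, act through STAT transcription factors on antiviral genes, on the genes of antigen presentation and on the chemokines that attract T cells. ECs line the vessels, control which leukocytes leave the blood through their selectins and integrin ligands, and grow new vessels from tip cells that lead a sprout. TNF reaches ECs through its receptors, whose signalling complexes can lead either to NF-kB activity or to caspase-driven death.

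The deposited values were FPKM, fragments per kilobase of gene divided by a depth scale set for each library. The reads recovered from them came to between 9317813 and 12058004 per library in the 6 cGAMP tumour libraries. A gene was tested when it reached an FPKM of 1 in at least 3 of the 18 libraries, which 13983 of 16248 genes did. Every difference below is the mean of the implanted libraries minus the mean of the MMTV-PyMT libraries on the log2(FPKM + 1) scale, with its standard error, and a positive value means higher in the implanted tumours. This scale understates the change of genes with low FPKM. A gene was called when its limma test, adjusted by the Benjamini-Hochberg method over all 13983 genes, gave an adjusted p under 0.05 and its difference was at least 2-fold.

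Markers of the labelled cell type were found in every library, beside markers of other cells. The summed FPKM of the 12 pan-endothelial markers was 2405, 1470 and 1784 in the implanted libraries and 1039, 1429 and 1271 in the MMTV-PyMT libraries. Pecam1, which encodes CD31, was at 386, 251 and 275 FPKM in implanted libraries 1, 2 and 3 and at 158, 222 and 198 FPKM in MMTV-PyMT libraries 1, 2 and 3. All 12 pan-endothelial markers were tested and none was called by limma or by voom on the recovered reads, although 8 had an unadjusted p under 0.05. Their median difference was 0.62 against a median of 0.004 over all genes tested, and 1 marker was called lower under total-read scaling, under quantile normalization or without implanted library 3. Markers of other cells were also detected. The summed FPKM of 7 pan-leukocyte markers was 57.3, 178 and 54.6 in the implanted libraries and 36.7, 30.1 and 37.2 in the MMTV-PyMT libraries, so that implanted library 2 stood apart. The same library held the highest sums for 11 macrophage and monocyte markers, 540.1 FPKM against 155 and 176 in the other implanted libraries, and for 5 T and NK cell markers, 68.8 FPKM against 14.4 and 9.14. In the MMTV-PyMT libraries the macrophage and monocyte sums were 157, 130 and 151 FPKM and the T and NK cell sums 1.61, 1.32 and 1.34 FPKM. For the T and NK cell markers every implanted library was thus above every MMTV-PyMT library. Of the pan-leukocyte markers, 6 of 7 were called higher, and 1 of 7 without implanted library 2, and for the macrophage markers the counts were 9 of 10 tested and 4. Ptprc, which encodes CD45 itself, was at 1.8, 9.24 and 1.7 FPKM in the implanted libraries and at 0.257, 0.311 and 0.156 FPKM in the MMTV-PyMT libraries, a difference of 1.78 ± 0.57 that lost its call without implanted library 2, at 1.15.

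Fibroblast markers summed to 747, 860.1 and 372 FPKM in the implanted libraries and to between 219.6 and 286 FPKM in the MMTV-PyMT libraries, with 3 of 9 called higher. Epithelial markers went the other way, at 801, 1574 and 1413 FPKM against 2517, 1789 and 1959.8 FPKM, with 6 of 15 called lower and 3 of 15 without implanted library 1 or without MMTV-PyMT library 1. The sum of these 15 markers was above that of the 12 endothelial markers in every MMTV-PyMT library and in implanted library 2. Mural markers overlapped, at 251 to 557 FPKM against 284 to 407 FPKM, and 0 of 10 were called by limma, with 3 at an unadjusted p under 0.05. Of the 10, 1 was called higher by voom, with a pseudocount of 0.1, and without implanted library 2 or MMTV-PyMT library 2. Only 1 of 6 neutrophil markers and 1 of 4 B cell markers were listed in the table, and none of 6 adipocyte markers. In sorted bulk samples of this kind, fewer cells of a type and less RNA per cell cannot be told apart.

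**Figure D1:**
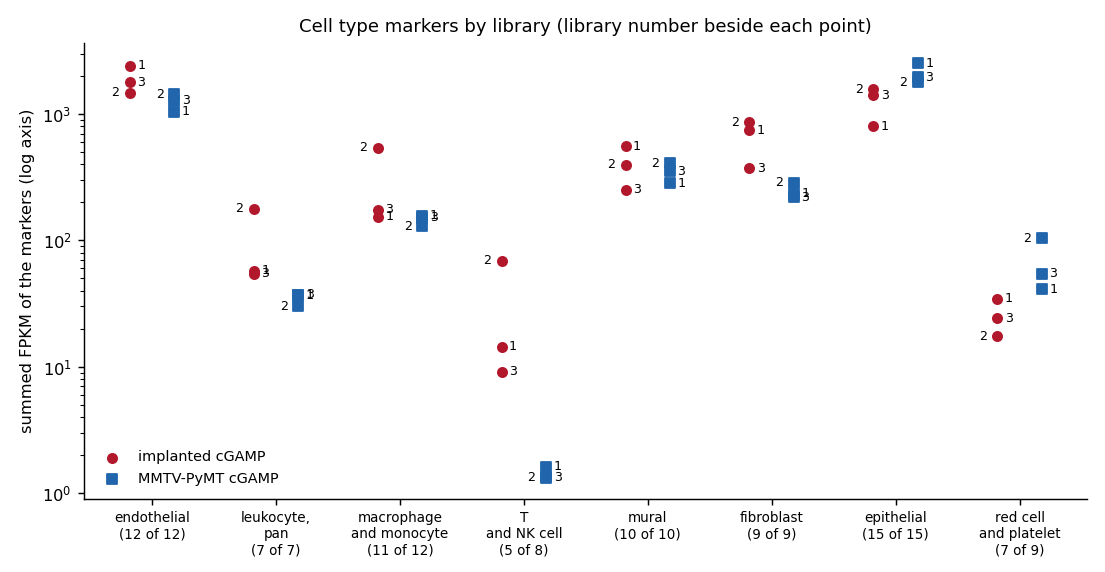
Summed FPKM (log axis) of each fixed marker list in every cGAMP tumour library; each point is 1 library, red circles for implanted and blue squares for MMTV-PyMT tumours, with its number. Implanted library 2 stood above the other 5 libraries for the pan-leukocyte, macrophage and T and NK cell lists, and all 3 MMTV-PyMT libraries were above the 3 implanted libraries for the epithelial list.

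Under cGAMP, 981 genes were called higher in the implanted tumour ECs, 7.02% of the genes tested, and 470 were called lower, 3.36%. The higher calls thus made up 67.6% of the 1451 calls. This split depended on how the libraries were scaled. With each library scaled by its total reads, 553 genes were called higher and 921 lower, so that 37.5% of the calls were higher, and the median of all tested genes moved from 0.004 to −0.238. Of the 981 higher calls 553 held under that scaling, as did all 470 lower calls. Without implanted library 2, 868 of the higher and 452 of the lower calls held. In 3787 genes, 27.1% of those tested, every implanted library was above every MMTV-PyMT library, and in 3731, or 26.7%, every implanted library was below. Among the called genes, the groups did not overlap in 964 of the 981 higher and 467 of the 470 lower genes. Each list count under cGAMP below is to be set against the 7.02% called higher and 3.36% called lower among all genes.

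**Figure D2:**
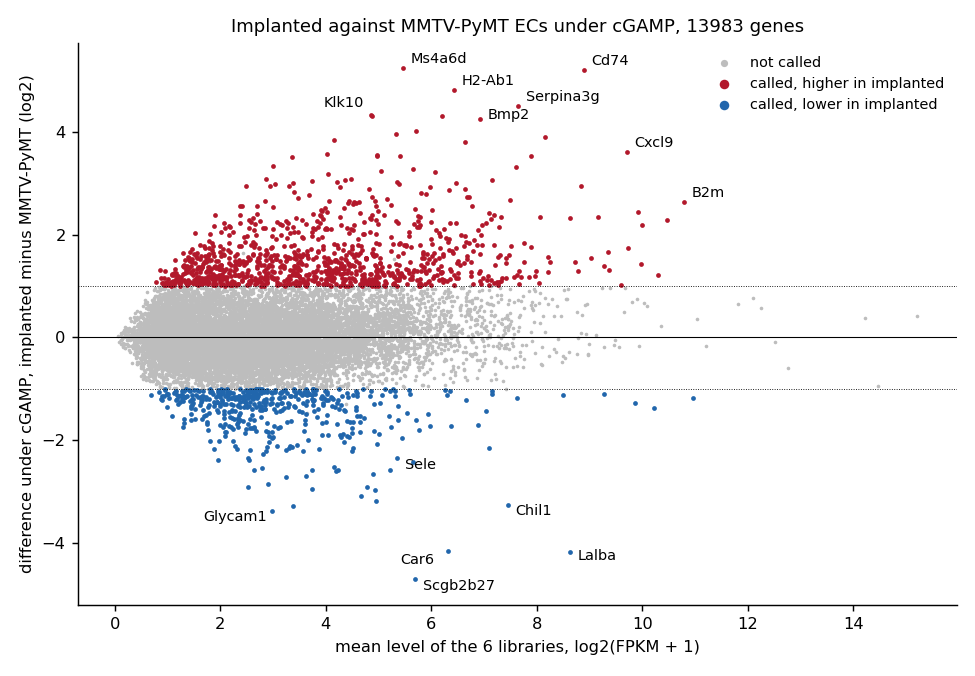
Difference of each of the 13983 tested genes under cGAMP (vertical axis, log2(FPKM + 1), implanted minus MMTV-PyMT) against its mean level over the 6 libraries (horizontal axis). Coloured points are the 981 genes called higher and the 470 called lower, and they lie above and below the band of the other genes at all levels.

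Among the 15 with the largest positive differences, by a rule that left out predicted genes and genes under a mean of 5 FPKM, were 3 components of the MHC class II system, 2 serpins of the Serpina3 cluster, the T cell attractant Cxcl9 and the antiviral enzyme Oas3. Among the 15 with the largest negative differences were the milk protein genes Lalba and Csn1s2a and the secretoglobin Scgb2b27.

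The promoters of several of these genes are shown because they hold, or lack, the letters of short elements through which interferon and NF-kB act. The windows run from 250 bases before to 50 bases after the annotated start, 5′ to 3′ on the gene's own strand, from RefSeq on build GRCm38.p6. Shown are the 4 genes with the largest differences, among the top-ranked genes and the called interferon and chemokine genes, that the RefSeq promoter table holds, and Cxcl9 and Oas3, which were added after their values were seen. Capitals mark a match to the IRF element GAAANNGAA or the NF-kB site GGGANTTCC on either strand.
Serpina3g: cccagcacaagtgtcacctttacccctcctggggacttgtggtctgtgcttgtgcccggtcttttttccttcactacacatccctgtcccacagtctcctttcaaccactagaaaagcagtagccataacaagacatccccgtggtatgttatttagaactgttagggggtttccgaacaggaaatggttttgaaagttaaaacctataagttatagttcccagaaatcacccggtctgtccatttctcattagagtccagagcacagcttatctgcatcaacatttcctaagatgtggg
Klk10: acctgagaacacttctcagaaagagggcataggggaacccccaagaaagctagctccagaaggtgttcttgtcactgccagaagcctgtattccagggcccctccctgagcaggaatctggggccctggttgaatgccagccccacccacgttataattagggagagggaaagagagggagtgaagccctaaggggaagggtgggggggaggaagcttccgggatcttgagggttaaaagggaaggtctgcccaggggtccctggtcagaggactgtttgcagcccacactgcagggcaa
H2-Aa: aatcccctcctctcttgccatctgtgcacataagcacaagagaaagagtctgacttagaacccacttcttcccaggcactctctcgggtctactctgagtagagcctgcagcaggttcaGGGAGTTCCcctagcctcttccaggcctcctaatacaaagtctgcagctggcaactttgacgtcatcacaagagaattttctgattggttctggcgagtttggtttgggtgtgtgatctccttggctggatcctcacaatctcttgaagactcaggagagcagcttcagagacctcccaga
Cxcl9: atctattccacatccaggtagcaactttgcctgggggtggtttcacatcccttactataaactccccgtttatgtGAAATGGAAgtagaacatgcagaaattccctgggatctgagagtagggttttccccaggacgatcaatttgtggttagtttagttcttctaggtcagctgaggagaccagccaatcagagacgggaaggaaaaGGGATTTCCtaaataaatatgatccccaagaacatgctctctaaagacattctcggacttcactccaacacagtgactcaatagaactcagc
Oas3: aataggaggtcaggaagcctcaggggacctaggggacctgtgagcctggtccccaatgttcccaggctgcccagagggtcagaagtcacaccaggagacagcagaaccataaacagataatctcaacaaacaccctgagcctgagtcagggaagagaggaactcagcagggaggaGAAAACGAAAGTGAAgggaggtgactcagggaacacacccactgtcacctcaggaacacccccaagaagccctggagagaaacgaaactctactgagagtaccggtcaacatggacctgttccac
Scgb2b27: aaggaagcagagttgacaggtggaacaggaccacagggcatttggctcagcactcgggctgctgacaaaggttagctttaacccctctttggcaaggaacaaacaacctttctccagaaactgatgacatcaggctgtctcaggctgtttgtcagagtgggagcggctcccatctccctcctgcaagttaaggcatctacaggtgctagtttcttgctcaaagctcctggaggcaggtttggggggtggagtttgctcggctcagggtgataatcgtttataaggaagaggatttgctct

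The H2-Aa window (minus strand, chr17:34287774-34288073) held 1 NF-kB site beginning 131 bases before the start, and the Cxcl9 window (minus strand, chr5:92328030-92328329) held an IRF element at 175 and an NF-kB site at 42 bases. Oas3 (minus strand, chr5:120777610-120777909) had 2 IRF elements that overlapped each other, at 75 and 69 bases. The windows of Serpina3g (plus strand, chr12:104235897-104236196), Klk10 (plus strand, chr7:43780804-43781103) and Scgb2b27 (minus strand, chr7:34013893-34014192) held neither set of letters. No match to the IRF element overlapped a match to the NF-kB site in these windows. Promoters were matched by symbol for 661 of the 981 genes called higher, 333 of the 470 called lower and 9831 of the 13983 tested. The IRF element was found in 15.3% of the promoters of genes called higher, 5.41% of those called lower, 7.1% of those tested and 8.57% of all 27025 promoters in the table. The NF-kB site was found in 2.12%, 2.1%, 2.33% and 1.69% of the same 4 sets. By list, 56% of 25 promoters of interferon-stimulated genes and 76.9% of 13 of interferon-gamma-type genes held the IRF element. Such a match is a description of letters, not a binding site.

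Ms4a6d (ENSMUSG00000024679.10, chromosome 19, 11586604 to 11604849, minus strand, GRCm38), a membrane protein of the MS4A family, had the largest positive difference by the same rule. It was at 115, 61.2 and 79 FPKM in the implanted libraries and at 0.479, 1.44 and 2.02 FPKM in the MMTV-PyMT libraries, a difference of 5.23 ± 0.26 with an adjusted p of 1.97e-09. The groups were far apart, with implanted library 1 the highest. Serpina3g (chromosome 12, 104236245 to 104241939, plus strand), an intracellular protease inhibitor induced by interferon-gamma, was at 514, 331 and 297 FPKM against 9.95, 18.9 and 19.2 FPKM, a difference of 4.5 ± 0.27, and its neighbour Serpina3f differed by 3.89 ± 0.29. Klk10, a secreted serine peptidase, was at 25.9, 60.4 and 77.6 FPKM against 1.34, 2.55 and 0.927 FPKM, a difference of 4.33 ± 0.37, with implanted library 1 the lowest of the 3 but still far above the MMTV-PyMT libraries. Bmp2 (chromosome 2, 133552159 to 133562885, plus strand), a ligand of the TGF-beta superfamily, was at 352, 171 and 169 FPKM against 7.97, 11.9 and 12.3 FPKM, a difference of 4.24 ± 0.29, with implanted library 1 the highest. Serpinb1a, an inhibitor of neutrophil proteases, and Plac8 followed at 3.95 ± 0.24 and 3.56 ± 0.32. Phf11b, Gbp10 and H2-Q6 were also among the 15, at 4.02 ± 0.28, 3.55 ± 0.21 and 3.8 ± 0.13. These genes, the Serpina3 genes and the Ms4a6 genes have near-identical copies in the mouse genome among which reads could be split, so their single values are uncertain.

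**Figure D3:**
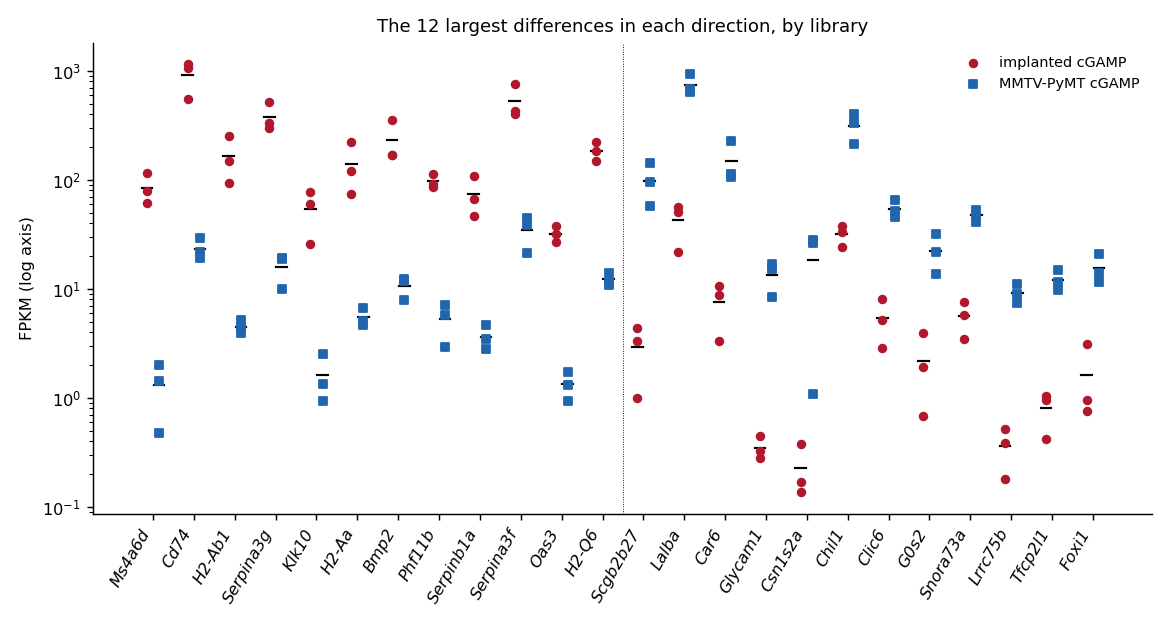
FPKM (log axis) in each cGAMP tumour library of the 12 genes with the largest positive and the 12 with the largest negative differences by the naming rule; each point is 1 library. Red circles are implanted and blue squares MMTV-PyMT libraries, and black bars are group means. The rule required groups without overlap, and the gap is narrowest for Csn1s2a, where 1 MMTV-PyMT library was at 1.09 FPKM.

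All the tested genes of MHC class II presentation were higher. ECs take up and present antigen on class II molecules, whose alpha and beta chains are guided by the invariant chain and loaded by the H2-DM proteins under the control of the transactivator Ciita. All 8 tested members of this list were called higher, with a median of 2.95 against 0.004 for all genes. The invariant chain gene Cd74 was at 1059.8, 1155 and 552 FPKM in the implanted libraries and at 29.2, 22 and 19.1 FPKM in the MMTV-PyMT libraries, a difference of 5.19 ± 0.50 (adjusted p = 6.7e-07). Every implanted library was above every MMTV-PyMT library, and the implanted libraries 1 and 2 were at about the same level. The chain genes H2-Ab1 (ENSMUSG00000073421.6, chromosome 17, 34257689 to 34269419, plus strand) and H2-Aa followed, H2-Ab1 at 149.8, 253 and 93.3 FPKM against 3.92, 4.44 and 5.16 FPKM and H2-Aa at 119.6, 224 and 74.4 FPKM against 6.68, 4.66 and 5.11 FPKM, with implanted library 2 the highest for both. Their differences were 4.81 ± 0.48 and 4.3 ± 0.56, and 4.44 and 3.89 without implanted library 2. H2-DMb1, H2-DMa, Ciita and H2-Eb1 differed by 2.98, 2.65, 2.38 and 1.51. Ctss, a protease that trims the invariant chain, was at 49.2, 240.5 and 51.1 FPKM against 10.7, 9.2 and 11.3 FPKM and differed by 2.91, or 2.17 without library 2. All 8 members held their call without that library and under total-read scaling, with medians of 2.71 and 2.63. Leukocytes also express these genes, their markers were higher in the implanted libraries as given above, and their part in the differences was not tested.

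Genes of class I presentation were mostly higher too. Class I molecules carry peptides cut by the proteasome and pumped by the Tap transporter to the cell surface, where CD8 T cells read them. Of 13 members, 12 were called higher, with a median of 2.0, 11 of them also under total-read scaling. B2m, the shared light chain, was at 3416, 3046 and 2648 FPKM in the implanted libraries and at 432, 511 and 521 FPKM in the MMTV-PyMT libraries, a difference of 2.63 ± 0.14. The lowest implanted library was thus well above the highest MMTV-PyMT library. The heavy chains H2-K1 and H2-D1 differed by 2.34 ± 0.11 and 2.29 ± 0.12, the transactivator Nlrc5 by 2.57 ± 0.17, the transporter subunits Tap1 and Tap2 by 1.99 ± 0.19 and 2.0 ± 0.12, and the immunoproteasome subunits Psmb8, Psmb9 and Psmb10 by 2.09, 2.29 and 1.98. Psme1, at 1.02 ± 0.11, lost its call without implanted library 1, at 0.93, or without MMTV-PyMT library 1, at 0.96. Erap1, a trimming peptidase, was not called at 0.80 ± 0.08.

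Of 35 interferon-stimulated genes, 29 were called higher and none lower, with a median of 1.45, while 7.02% of all genes were called higher. The 2'-5' oligoadenylate synthetases make the signal that activates RNase L. Oas3, with the largest difference of the list, was at 26.7, 37.8 and 32.1 FPKM in the implanted libraries and at 0.94, 1.32 and 1.74 FPKM in the MMTV-PyMT libraries, a difference of 3.83 ± 0.24 (adjusted p = 1.07e-08), and Oas2 and Oas1a differed by 3.03 and 2.81. Zbp1, a sensor of Z-form nucleic acids, was at 83.1, 73.2 and 75.2 FPKM against 4.37, 6.23 and 6.97 FPKM, a difference of 3.53 ± 0.26. Both genes showed a wide gap and little spread within the implanted group. The tetherin gene Bst2 differed by 2.56, the ubiquitin ligase genes Trim30a and Herc6 by 2.74 and 2.21 and the interferon master regulator Irf7 by 2.09. Among the genes the study named as cGAMP-induced, Oasl2 differed by 1.62, Phf11d by 1.45 and Isg15 by 1.38.

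Isg15, a ubiquitin-like modifier and the most abundant of these, was at 988, 817 and 862 FPKM against 320.4, 355 and 344 FPKM, so that the groups were separate but closer than for the Oas genes. Genes of the same list that were not called included Ifit1, at −0.19 ± 0.27, Mx2, at 0.41 ± 0.16, and Oasl1, at 0.75 ± 0.21. Under total-read scaling 21 of the 35 were called and under quantile normalization 18, all higher. Among 10 members of the STING pathway itself, 2 were called higher, beside 7.02% of all genes, and the median was 0.13. Tmem173, which encodes STING, was at 92.7, 82.1 and 72.1 FPKM in the implanted libraries and at 24.9, 32.7 and 36.6 FPKM in the MMTV-PyMT libraries, a difference of 1.37 ± 0.15 (adjusted p = 1.77e-06) with no overlap. The kinase gene Tbk1 was not called, at 0.86 ± 0.11, nor was Irf3, at 0.09 ± 0.14. The other called member, Lrrc8c, a subunit of volume-regulated anion channels, differed by 1.01 and lost its call without implanted library 1, at 0.79, or MMTV-PyMT library 1, at 0.91. Neither of the pathway's calls held under quantile normalization.

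Of 18 tested genes typical of interferon-gamma, 14 were called higher, with a median of 1.75. The guanylate-binding proteins, which coat pathogen vacuoles and membranes, were among them. Gbp2 was at 2114, 1345 and 1529 FPKM in the implanted libraries and at 297, 383 and 409 FPKM in the MMTV-PyMT libraries, a difference of 2.18 ± 0.20, and Gbp3, Gbp4, Gbp5, Gbp7 and Gbp9 differed by 2.42, 1.94, 2.34, 1.16 and 2.04. Gbp7 lost its call under quantile normalization, at 0.73, and under total-read scaling, at 0.82. The tryptophan enzymes Wars and Ido1, the former a tRNA synthetase and the latter the first step of the kynurenine route, differed by 2.73 and 3.08. Cd274, which encodes the checkpoint ligand PD-L1, was at 334, 181 and 166 FPKM against 52.2, 71.7 and 62.7 FPKM, a difference of 1.79 ± 0.24, with the implanted libraries all higher. Irf8 differed by 1.58 and the feedback inhibitor Socs1 by 1.71. Of the immunity-related GTPases, Igtp and Tgtp1 were called at 1.47 and 1.57, whereas Irgm1, Irgm2 and Iigp1 were not, at 0.37 ± 0.13, 0.44 ± 0.17 and 0.41 ± 0.16. Igtp was not called under quantile normalization, at 0.88.

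**Figure D4:**
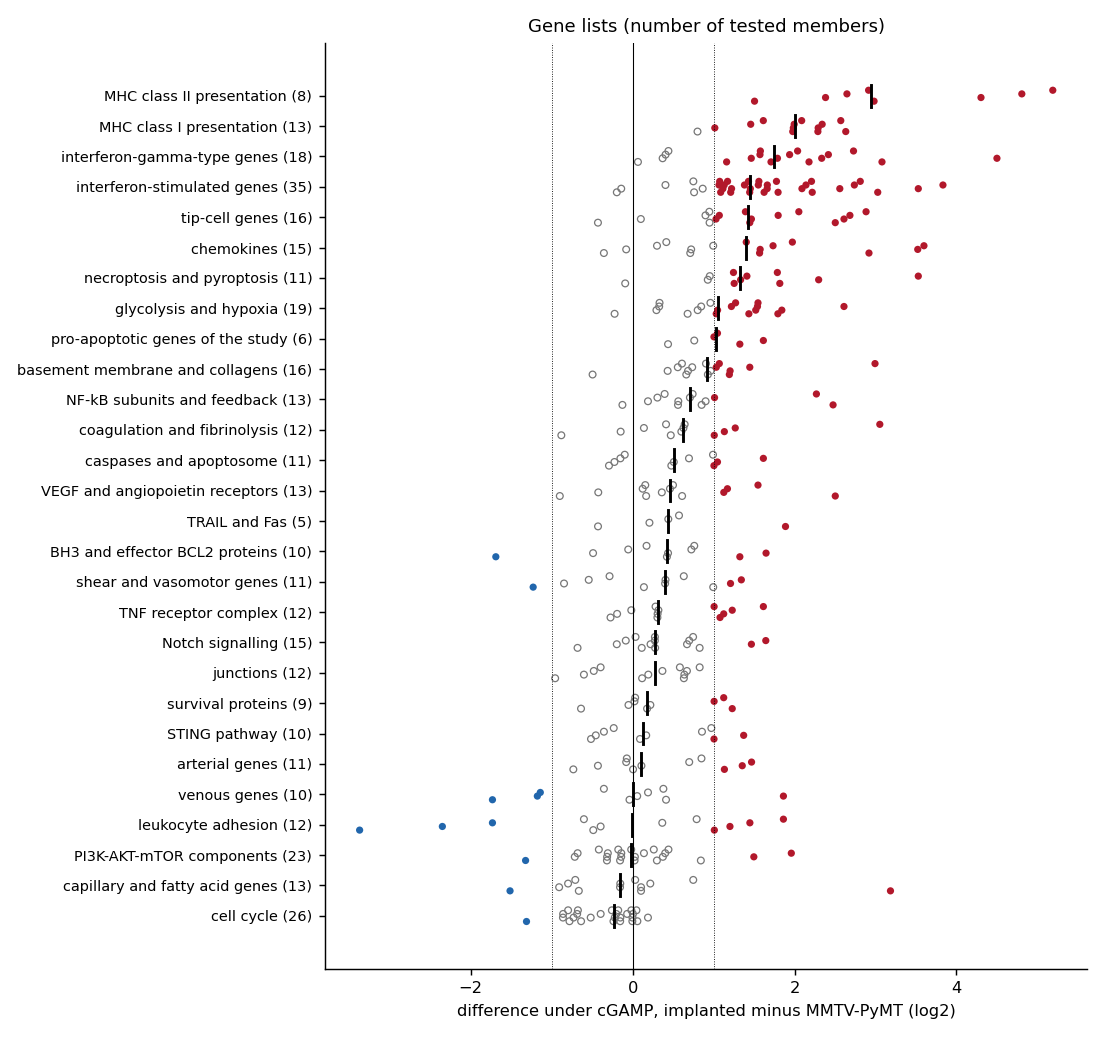
Differences under cGAMP (log2(FPKM + 1), implanted minus MMTV-PyMT) of the tested members of the fixed gene lists; each point is 1 gene, red where called higher, blue where called lower and open where not called. Black bars are medians and dotted lines the 2-fold limit. The MHC class II list, at a median of 2.95, and the class I list, at 2.0, lay furthest to the right, and the cell cycle list, at −0.23, lay to the left of 0.

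Chemokines that attract T cells and NK cells were among the genes furthest apart. Cxcl9 (ENSMUSG00000029417.9, chromosome 5, 92321347 to 92328079, minus strand) was at 2225, 1119 and 1273 FPKM in the implanted libraries and at 82.9, 149 and 141 FPKM in the MMTV-PyMT libraries, a difference of 3.6 ± 0.31 (adjusted p = 1.84e-07). Cxcl11 was at 606, 331 and 371 FPKM against 25.9, 43.2 and 40.6 FPKM, a difference of 3.52 ± 0.26, and Cxcl10 was at 1747, 1071 and 1109.8 FPKM against 330.4, 433 and 392 FPKM, a difference of 1.73 ± 0.22. For all 3 of these CXCR3 ligands, implanted library 1 was the highest and MMTV-PyMT library 1 the lowest, and the groups did not overlap. Of 15 chemokines and scavenger receptors tested, 8 were called higher and none lower, with a median of 1.40. The other called genes were the monocyte attractants Ccl8 and Ccl2, at 2.92 and 1.57, the transmembrane chemokine Cxcl16 at 1.97, the scavenger Ackr2 at 1.58 and the neutrophil attractant Cxcl2 at 1.4. Ccl8 was at 2.17 without implanted library 2. Ccl5, at 123, 107 and 115 FPKM against 68.5, 48.3 and 56.5 FPKM, differed by 1.0 ± 0.22 and was just under the 2-fold limit.

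Leukocyte adhesion genes were divided. Of 12 genes, 4 were called higher and 3 lower, and the median was −0.01. The integrin ligand Vcam1 was at 179, 93.1 and 101 FPKM in the implanted libraries and at 23.9, 39.9 and 34.2 FPKM in the MMTV-PyMT libraries, a difference of 1.86 ± 0.25, and Icam1 and Icam2 differed by 1.45 ± 0.22 and 1.2 ± 0.17. The endothelial selectins, on which leukocytes first roll, lay on the other side. Sele (chromosome 1, 164048234 to 164057677, plus strand) was at 14.1, 7.92 and 16.6 FPKM against 60.2, 69.9 and 71 FPKM, a difference of −2.35 ± 0.34 (adjusted p = 3.71e-05), and Selp was at 44.7, 30.9 and 36.7 FPKM against 109, 133 and 135 FPKM, a difference of −1.73 ± 0.26. Both selectins were lower in every implanted library than in any MMTV-PyMT library, and all 3 lower calls held under total-read scaling, where Icam2 and F11r did not. The fourth gene called higher, the junctional molecule F11r, differed by 1.01 and lost its call without implanted library 1, at 0.87, or MMTV-PyMT library 1, at 0.91. Glycam1, a mucin of lymph node vessels and of milk, was the third gene called lower, at −3.37 ± 0.41.

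For TNF itself no difference was detected. Tnf was at 30.8, 47.4 and 30 FPKM in the implanted libraries and at 61, 27 and 27.4 FPKM in the MMTV-PyMT libraries, a difference of −0.02 ± 0.27 (adjusted p = 0.964). MMTV-PyMT library 1 was the highest of all 6, and the groups overlapped. Its main receptor Tnfrsf1a differed by −0.27 ± 0.10. Of 12 genes of the TNF receptor complex, 5 were called higher, with a median of 0.31. Casp8, the initiator caspase of this complex, was at 109, 70.8 and 77.8 FPKM against 22.5, 32.3 and 26.6 FPKM, a difference of 1.62 ± 0.15 (adjusted p = 5.36e-07), with no overlap. Its inhibitor Cflar differed by 1.23 ± 0.15, the second receptor Tnfrsf1b by 1.08 ± 0.17, and the ubiquitin ligases Birc2 and Birc3, which hold the complex in its NF-kB form, by 1.13 ± 0.11 and 1.01 ± 0.12. Without implanted library 1, 2 of the 5 calls remained, with Tnfrsf1b at 0.96, Birc2 at 0.99 and Birc3 at 0.84, and under total-read scaling 1 remained. The death ligand Tnfsf10, known as TRAIL, was called higher at 1.89 ± 0.15. It was the only called gene of 5 tested in the TRAIL and Fas list, beside 7.02% of all genes called higher.

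The 6 pro-apoptotic genes that the study set apart were chosen on these same samples, so their direction here is not independent evidence. Of the 6, 4 were called higher, with a median of 1.03. The pore-forming Bak1 was at 46.3, 44.4 and 40.2 FPKM in the implanted libraries and at 15.4, 15.9 and 19.3 FPKM in the MMTV-PyMT libraries, a difference of 1.32 ± 0.12. Apaf1, the scaffold of the apoptosome, differed by 1.0 ± 0.21, and Casp8, described above, was also among the 4. In all 6 genes each implanted library was above each MMTV-PyMT library, as in 27.1% of all genes tested. These included the uncalled Bax and Bid, at 0.76 ± 0.11 and 0.44 ± 0.13. Apaf1 lost its call without implanted library 1, at 0.81, or MMTV-PyMT library 1, at 0.79. Only Casp8 was called under total-read scaling. Among 11 caspases and apoptosome genes 3 were called higher, Casp8 and Apaf1 among them, and 1 without implanted library 1. Among 10 BH3 and effector proteins, which start mitochondrial death, Bcl2l11 and Bak1 were called higher and Bmf lower, Bcl2l11 at 1.65 ± 0.14 and Bmf at −1.69 ± 0.18. The shares of all genes were 7.02% higher and 3.36% lower.

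Of 9 survival genes tested 3 were called higher, with a median of 0.18, and they were Cflar, Birc2 and Birc3, of which none was called under total-read scaling. Necroptosis and pyroptosis genes, which open the cell membrane, were called in 8 of 11 cases, all higher, with a median of 1.33. The pore-forming Gsdmd differed by 2.3 ± 0.15, the necroptosis pair Ripk3 and Mlkl by 1.79 ± 0.22 and 1.82 ± 0.13, and the inflammatory caspases Casp1 and Casp4 by 1.25 and 1.25. Under total-read scaling 6 of the 11 were called, and Casp1 and Casp4 were not, at 0.92 and 0.93. Mlkl was at 66.3, 54.6 and 56.3 FPKM against 13.6, 19.5 and 15.3 FPKM and so was separate between the groups. The cytokine gene Il1b, at 6.77, 28.2 and 4.25 FPKM against 3.14, 3.09 and 2.73 FPKM, rested on implanted library 2, and its difference of 1.41 became 0.68 without it, no longer called. Nlrp3, at 1.33, passed the expression filter only through the 3 implanted cGAMP libraries, where it was high. Its call therefore adds no support to the count of 8. It was not tested when any of these libraries was left out. Of the 10 members then tested, 7, 6 and 8 were called without implanted library 1, 2 and 3.

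Of 13 subunits and feedback genes of NF-kB, 3 were called higher, with a median of 0.71. The inhibitor genes Tnip1 and Nfkbie, themselves induced by NF-kB, differed by 2.48 ± 0.19 and 2.27 ± 0.10. Tnip1 was at 159, 78.3 and 89.3 FPKM in the implanted libraries and at 15.2, 21 and 17.7 FPKM in the MMTV-PyMT libraries. The groups stood well apart. The subunit Nfkb2 differed by 1.01 and was not called without implanted library 1, at 0.89, or MMTV-PyMT library 1, at 0.91. The PI3K-AKT-mTOR components, which relay growth factor signals for survival, centred on 0. Of 23 tested, 2 were called higher and 1 lower, beside 7.02% and 3.36% of all genes, with a median of −0.02. The kinase genes Akt1 and Akt2 were not called, at 0.14 ± 0.09 and −0.15 ± 0.09. Pik3cd, a catalytic subunit most abundant in leukocytes, was called higher at 1.5 ± 0.33, or 1.17 without implanted library 2, and the insulin receptor substrate Irs1 was called lower at −1.32 ± 0.16.

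Tip-cell genes were higher as a group of 11 called out of 16, with none lower and a median of 1.42. Cxcr4, a chemokine receptor enriched in tip cells, was at 203, 154 and 168 FPKM in the implanted libraries and at 20.1, 27.6 and 21.1 FPKM in the MMTV-PyMT libraries, a difference of 2.88 ± 0.22 (adjusted p = 5.58e-08). Esm1, a proteoglycan secreted by sprouting ECs, was at 71.5, 55 and 54.3 FPKM against 5.1, 16.3 and 7.03 FPKM, a difference of 2.68 ± 0.29. Angpt2, which loosens the contact of ECs with mural cells, was at 121, 82.4 and 59.5 FPKM against 11, 16.5 and 15.1 FPKM, a difference of 2.5 ± 0.19. None of the 3 overlapped between the groups. The peptide hormone Adm, the VEGF family ligand Pgf and Trp53i11 differed by 2.61 ± 0.16, 2.05 ± 0.21 and 1.8 ± 0.18, and the Notch ligand Dll4, which restrains sprouting in neighbouring cells, by 1.47 ± 0.18. The apelin receptor Aplnr was not called, at −0.43 ± 0.22. Under total-read scaling 9 of the 16 were called.

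Of 13 VEGF and angiopoietin ligands and receptors 4 were called higher, with a median of 0.46, and 2 higher and 1 lower under total-read scaling and under quantile normalization alike. Besides Angpt2 they were Vegfa, at 1.55 ± 0.19, the lymphatic receptor Flt4, at 1.17 ± 0.17, and the decoy receptor Flt1, at 1.13 ± 0.18, which was not called without implanted library 1, at 0.98, or MMTV-PyMT library 1, at 0.91. Flt4 and Flt1 were not called under total-read scaling, at 0.84 and 0.79, or under quantile normalization, at 0.88 and 0.65. The signalling receptor Kdr was at 99.3, 64.9 and 94.1 FPKM against 59.7, 93.6 and 76.2 FPKM, a difference of 0.17 ± 0.19 with overlapping groups, and the angiopoietin receptor Tek, at −0.90 ± 0.18, was lower in the implanted tumours by less than the 2-fold limit. Of 15 Notch genes 2 were called higher, beside 7.02% of all genes, Notch4 at 1.65 ± 0.15 and Dll4. Arterial and venous genes mark the side of the circulation to which a vessel belongs. Of 11 arterial genes 3 were called higher, the gap junction gene Gja5 at 1.47 ± 0.16, the transcription factor Mecom at 1.35 ± 0.17 and the guidance ligand Efnb2 at 1.13 ± 0.20, the last of which lost its call without implanted library 3, at 0.95, or MMTV-PyMT library 1, at 0.99. Of 10 venous genes Vcam1 was called higher, and Selp, Lrg1 and Lbp were called lower, the latter 2 at −1.18 ± 0.14 and −1.14 ± 0.15. Among 13 capillary and fatty acid genes, the membrane-bound carbonic anhydrase Car4 was called higher, at 35.8, 37.6 and 13.5 FPKM against 1.41, 3.1 and 1.78 FPKM with a difference of 3.18 ± 0.31, and the glycerol channel Aqp7 lower, at −1.51 ± 0.31. More of the 13 were called lower by voom, 4, and with total-read scaling or a pseudocount of 0.1, 3 each.

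Of 16 genes of the basement membrane and its collagens, 6 were called higher and none lower, with a median of 0.92. Fibronectin, Fn1, was at 222, 163 and 85.4 FPKM in the implanted libraries and at 14.5, 20.7 and 17.6 FPKM in the MMTV-PyMT libraries, a difference of 2.99 ± 0.23 (adjusted p = 7.07e-08). The implanted libraries spread over a wider range than the MMTV-PyMT libraries but did not overlap with them. The nidogens, which link laminin to collagen IV, differed by 1.2 ± 0.20 for Nid1 and 1.45 ± 0.28 for Nid2, and Col18a1, the source of endostatin, by 1.2 ± 0.16. The collagen IV chains Col4a1 and Col4a2 were not called, at 0.61 ± 0.22 and 0.96 ± 0.21. The count was 2 of 16 under total-read scaling and 1 under quantile normalization. Collagen genes of fibroblasts were also higher, Col1a1 at 1.83 ± 0.30, Col1a2 at 1.45 ± 0.27 and Col6a3 at 1.58 ± 0.25, while Dcn and Pdgfra were not called, at 0.04 ± 0.25 and 0.23 ± 0.20. The part of fibroblast RNA in the matrix differences was not tested.

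Genes of glycolysis and of the response to low oxygen were called higher in 11 of 19 cases and lower in none, with a median of 1.05. The glucose transporter Slc2a1 was at 87.1, 96.4 and 72.9 FPKM in the implanted libraries and at 30.2, 27.7 and 27.7 FPKM in the MMTV-PyMT libraries, a difference of 1.54 ± 0.11. Pfkfb3, which drives glycolytic flux in sprouting ECs, was at 248, 144 and 152 FPKM against 43.3, 59.7 and 48.5 FPKM, a difference of 1.79 ± 0.17. Neither gene overlapped between the groups. The hypoxia-induced genes Ankrd37, Bnip3 and Egln3 differed by 1.84 ± 0.17, 1.52 ± 0.18 and 1.44 ± 0.16, and the glycolytic enzymes Pgk1 and Pfkp by 1.27 and 1.22. Pkm, at 1.05, was at 1.0 and not called without implanted library 1, and Gapdh, at 1.03, lost its call without implanted library 2, at 0.94, or MMTV-PyMT library 1, at 0.98. Under total-read scaling 7 of the 11 calls were left.

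Of 12 coagulation and fibrinolysis genes 4 were called higher, with a median of 0.62. The plasminogen activator Plau was at 63.6, 42.4 and 27.1 FPKM in the implanted libraries and at 17, 16.3 and 17.2 FPKM in the MMTV-PyMT libraries, with no overlap. Plau, its receptor Plaur and the protein C receptor Procr differed by 1.27 ± 0.23, 1.01 ± 0.21 and 1.13 ± 0.24, and lost their calls without implanted library 1, at 0.97, 0.74 and 0.83. Plaur and Procr also lost them without MMTV-PyMT library 1, at 0.92 and 1.0. Under total-read scaling Plau, Plaur and Procr were at 0.93, 0.67 and 0.80, none of them called, and the list had 1 gene called higher and 1 lower, and under quantile normalization 1 higher. Of 11 shear and vasomotor genes, the vasoconstrictor peptide gene Edn1 was called higher, at 1.34 ± 0.20, and so was the prostaglandin enzyme Ptgs2, at 1.21 or 0.80 and uncalled without implanted library 2, and 0.90 and uncalled under total-read scaling. Cyp1b1 was called lower, at −1.23, or −0.98 and uncalled without implanted library 3. Beside these shear and vasomotor calls, 7.02% of all genes were called higher and 3.36% lower. None of 12 junction genes was called by limma, with 10 at an unadjusted p under 0.05. Their median was 0.28, and Cdh5 and Esam stood at 0.63 ± 0.17 and 0.67 ± 0.14. Of the same 12 genes, 1 was called lower by voom on the recovered reads, with total-read scaling, with a pseudocount of 0.1, and without implanted library 2, implanted library 3 or MMTV-PyMT library 2.

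Of 26 cell cycle genes, 1 was called lower, beside 3.36% of all genes, and none higher, while 6 were called lower under total-read scaling. Their median was −0.23, and 4 had a positive difference. In 13 of the 26 every implanted library was below every MMTV-PyMT library, beside 26.7% of all genes. The called gene was Rrm2, the small subunit of ribonucleotide reductase, at 5.44, 7.16 and 5.56 FPKM in the implanted libraries and at 19.8, 14 and 16.2 FPKM in the MMTV-PyMT libraries, a difference of −1.32 ± 0.22. Its groups did not overlap. The replication helicase genes Mcm2 and Mcm7 were below the 2-fold limit, at −0.78 ± 0.16 and −0.86 ± 0.17, and the proliferation marker Mki67 was at 6.89, 8.78 and 8.93 FPKM against 10.1, 8.96 and 10.4 FPKM, a difference of −0.24 ± 0.25.

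The largest negative difference by the naming rule was that of the secretoglobin gene Scgb2b27. It (ENSMUSG00000066584.10, chromosome 7, 34011921 to 34013942, minus strand) was at 0.99, 3.33 and 4.4 FPKM in the implanted libraries and at 96, 57.9 and 142 FPKM in the MMTV-PyMT libraries, a difference of −4.7 ± 0.45 (adjusted p = 6.7e-07). Lalba (chromosome 15, 98480400 to 98482721, minus strand), the milk protein alpha-lactalbumin, was at 22, 50.4 and 56.6 FPKM against 928, 637 and 679 FPKM, a difference of −4.18 ± 0.41, and the secreted carbonic anhydrase Car6 was at 3.29, 10.5 and 8.87 FPKM against 112, 106 and 228 FPKM, a difference of −4.16 ± 0.42. In all 3 genes implanted library 1 was the lowest, and the groups were well separated. The casein gene Csn1s2a was at 0.375, 0.136 and 0.169 FPKM against 26.4, 28.2 and 1.09 FPKM, so that MMTV-PyMT library 3 was far below the other MMTV-PyMT libraries, and its difference of −3.28 ± 0.88 was not called by voom on the recovered reads, at −5.47 (adjusted p = 0.14). Chil1, a secreted chitinase-like protein, was at 24.2, 37.5 and 33 FPKM against 401, 331 and 214 FPKM, a difference of −3.26 ± 0.20.

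The epithelial list, to which none of these genes belongs, had a median of −0.81, and all 15 members had a negative difference. Under total-read scaling 9 of the 15 were called lower and under quantile normalization 8. The basal keratin Krt5 and the transcription factor Elf5, which directs milk-producing cells, differed by −2.04 ± 0.35 and −1.77 ± 0.26, and the whey protein gene Wap by −1.64 ± 0.40. The luminal keratin Krt8, the casein Csn3 and the claudin Cldn3 were called at −1.05, −1.13 and −1.04, and lost their calls without implanted library 1, at −0.72, −0.85 and −0.62, or MMTV-PyMT library 1, at −0.96, −0.92 and −0.90, and Krt8 also without MMTV-PyMT library 3, at −0.99. Epcam was at 73.2, 129 and 138 FPKM against 215, 157 and 173 FPKM and was not called, at −0.72 ± 0.19. The sort took cells positive for CD31, which epithelial cells lack, and the part of epithelial RNA in the lower genes was not tested. Other genes among the 15 largest negative differences were the lipolysis inhibitor G0s2, at −2.94 ± 0.37, the matrix protein Npnt, at −2.66 ± 0.15, the peptidylarginine deiminase Padi2, at −2.6 ± 0.26, and the transcription factors Tfcp2l1 and Foxi1, at −2.86 ± 0.17 and −2.72 ± 0.28. The haemoglobin genes Hbb-bs and Hba-a1 were called lower too, at −1.53 ± 0.38 and −1.9 ± 0.41, and no other of the 7 red cell and platelet genes tested was called by limma. Of the 7, voom called 1 higher and 2 lower, a pseudocount of 0.1 gave 2 higher and 3 lower, and total-read scaling gave 3 lower.

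The difference between the tumour types under PBS, which rests on 6 other libraries, was set beside that under cGAMP. Under PBS, 598 genes were called higher in the implanted tumour ECs, 4.28% of those tested, and 427 lower, 3.05%. With total-read scaling the majority turned, to 463 higher and 614 lower. Of the 981 genes called higher under cGAMP 394 were also called higher under PBS, which was 40.2% of the cGAMP calls and 65.9% of the PBS calls. Of the 470 called lower 274 were also called lower under PBS, 58.3% of the cGAMP calls and 64.2% of the PBS calls. The genes called higher under cGAMP had a median of 1.38 there and of 0.85 under PBS, and 938 of the 981 had a positive difference under PBS. For the genes called lower the medians were −1.28 and −1.09, and 462 of the 470 were negative under PBS. These genes were picked by their difference under cGAMP, so their medians cannot show whether differences grew with cGAMP. Picked the other way, the genes called higher under PBS had medians of 1.31 under PBS and 1.28 under cGAMP. Those called lower under PBS had medians of −1.25 and −1.17. Across the 13983 genes the 2 differences had a Pearson correlation of 0.77 and a Spearman correlation of 0.73, where genes are not independent replicates and the libraries share the 2 tumour types.

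**Figure D5:**
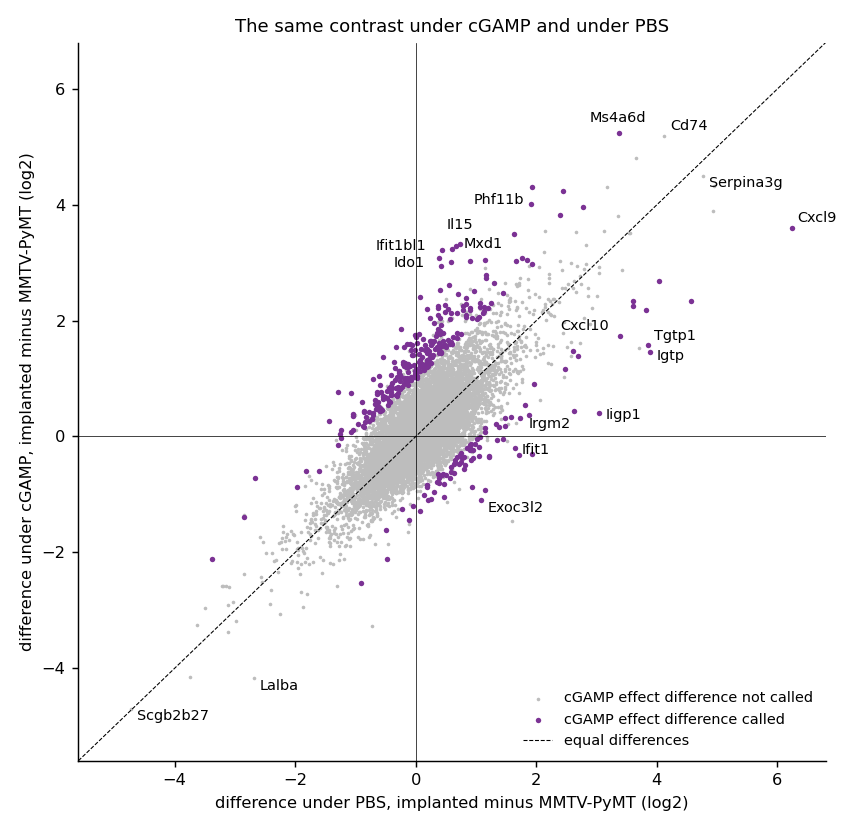
Difference between implanted and MMTV-PyMT tumour ECs under cGAMP (vertical axis) against the same difference under PBS (horizontal axis), both log2(FPKM + 1), for the 13983 tested genes; purple points are genes whose cGAMP effect differed between the tumour types by the call rule, the dashed line marks equal differences, and the 2 axes share no library. Cxcl9, Iigp1 and Irgm2 lie below the diagonal while Ido1, Il15 and Mxd1 lie above it.

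By list, the MHC class I and tip-cell lists had called 10 of 13 and 13 of 16 genes higher under PBS, with medians of 2.15 and 1.5, and the interferon-stimulated list 30 of 35, with a median of 1.69. The interferon-gamma-type list had 17 of 18 called higher under PBS, with a median of 2.71, compared with 14 and 1.75 under cGAMP. The difference of its cGAMP effects, a test described below, was called positive in 1 gene and negative in 8. For the TNF receptor complex no gene of 12 was called under PBS, at a median of 0.40, and for the study's 6 pro-apoptotic genes 1 was, at a median of 0.59. Under cGAMP their medians were 0.31 and 1.03, so that of the TNF receptor complex was no higher than under PBS. The difference of the cGAMP effects was called in 1 gene of each list, with medians of 0.11 and 0.6. Among all genes tested, 4.28% were called higher and 3.05% lower under PBS. The difference of the effects was called positive in 1.85% and negative in 0.629%. Sele and Selp were at −1.55 and −0.78 under PBS, compared with −2.35 and −1.73 under cGAMP, and the difference of the effects was called for neither. Bmp2 was at 19.1, 8.2 and 10.7 FPKM in the implanted PBS libraries and at 1.84, 1.32 and 1.02 FPKM in the MMTV-PyMT PBS libraries.

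Whether the 2 tumour types responded to cGAMP by different amounts was tested as the difference of their cGAMP effects, which shares the cGAMP libraries with the comparison above. The effect is signed, so that a positive value means a greater rise or a lesser fall with cGAMP in the implanted tumours. The difference was called positive in 258 genes, 1.85% of those tested, and negative in 88, 0.629%. This split depended on the scaling too, with 145 positive and 158 negative under total-read scaling and 195 and 126 under quantile normalization. Cxcl9 was at 289, 213 and 201 FPKM in the implanted PBS libraries and at 2.2, 1.74 and 2.32 FPKM in the MMTV-PyMT PBS libraries, so that the difference between the tumour types was 6.24 ± 0.31 under PBS and 3.6 under cGAMP, and the effects differed by −2.64 ± 0.43 (adjusted p = 0.00109). The Cxcl9 level rose with cGAMP by 2.66 in the implanted and by 5.3 in the MMTV-PyMT tumours. The immunity-related GTPases also stood closer together under cGAMP than under PBS. Iigp1 stood at 3.05 under PBS and 0.41 under cGAMP, Irgm2 at 2.62 and 0.44, Igtp at 3.89 and 1.47, and Tgtp1 at 3.85 and 1.57. Isg15, Cxcl10 and Gbp2 stood at 2.69, 3.39 and 3.83 under PBS and at 1.38, 1.73 and 2.18 under cGAMP.

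Other genes separated further under cGAMP. Ido1 was at 1.64, 0.743 and 1.22 FPKM in the implanted PBS libraries and at 1.16, 0.657 and 0.302 FPKM in the MMTV-PyMT PBS libraries, and under cGAMP it was at 15.9, 8.86 and 11.5 FPKM against 0.354, 0.602 and 0.581 FPKM. Its difference was 0.38 under PBS and 3.08 under cGAMP, and the effects differed by 2.7 ± 0.39. Il15, a cytokine for NK cells and CD8 T cells, was at 84, 44.9 and 48.1 FPKM against 4.04, 6.37 and 5.21 FPKM under cGAMP and at 4.54, 4.3 and 3.27 FPKM against 2.17, 2.61 and 2.12 FPKM under PBS, with differences of 3.23 and 0.60. In both genes the groups overlapped or nearly met under PBS and were apart under cGAMP. The transcriptional repressor Mxd1 stood at 0.67 under PBS and 3.28 under cGAMP, Ms4a6b at 0.74 and 3.33, Ifit1bl1 at 0.44 and 3.21, and Bmp2 at 2.45 and 4.24. Casp8 stood at 0.57 and 1.62. The single gene called in opposite directions was Exoc3l2, higher in the implanted tumours under PBS, at 1.09, and lower under cGAMP, at −1.1, the latter lost without MMTV-PyMT library 2, at −0.96, or library 3, at −0.97.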

How the data were processed

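RNA-seq was analysed in the sorted tumour ECs of 12 libraries, with the 6 fat pad libraries kept in the fits for the spread. Per the study's methods and the submitters' processing notes, FastQC served for read quality, STAR 2.7 for alignment to the mouse build mm10 and HTSeq for gene counts, whose handling of strand and of reads shared by several genes is not given in the sources used here. The authors deposited FPKM per gene and library in a single table of the whole series, in which 0 value columns lacked a sample and no column held a comparison of the authors. Dividing each FPKM by the value of 1 read gave whole reads in 15783 of 16248 genes (97.14%, within 0.05 reads or a relative 0.0002), 391 more by a common step and 74 without reads. The deposited scale followed median-of-ratios size factors within 0.11%, not library totals. The ratio of that scale to the recovered reads was 0.744 to 0.839 in the implanted and 1.0 to 1.032 in the MMTV-PyMT cGAMP libraries, so scaling by totals lowers every implanted value relative to the deposited scale. The value of 1 read on 1 kb of gene, 0.0923 to 0.1196 FPKM in these 6 libraries, limits the precision of low genes.

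Log2(FPKM + 1) was fitted with limma 3.58.1 in R 4.3.3, with a mean for each of the 6 groups over 18 libraries and a variance trend, and p-values were adjusted by the Benjamini-Hochberg method over 13983 genes. Tables and figures were made with Python 3.11.15, pandas 2.3.3, numpy 2.4.6 and matplotlib 3.10.9, and the scripts were tested on simulated data. The study's methods name a web tool for its differential tests without its settings, so its design could not be repeated. The comparison and the gene lists were chosen with earlier results of these data known. Genes were named by rule, namely the 15 largest called differences in each direction without overlap and with a mean of at least 5 FPKM in the higher group, called list members with up to 4 uncalled ones of highest level, 5 genes in each direction of the difference of effects, and genes the study names. Akt2, Mcm2, Mcm7, Mki67, Pdgfra and Tek fall outside the rule and were named after their values were seen. Gene positions are from GENCODE M21 on GRCm38, in which 16012 symbols matched, and 19 symbols turned into dates were left unnamed. Some genes and motifs that the rules name are not reported here. Alternatives changed the pseudocount to 0.1, the filter, the scaling, the tool (voom on recovered reads), the libraries in the fit and the fold limit, added a replicate block and left out each library in turn. Replicate correlations across genes were 0.967 to 0.978 among the implanted and 0.981 to 0.986 among the MMTV-PyMT cGAMP libraries, and no pair matched within counting noise. Each standard error comes from limma's variance, estimated within the 6 groups of 18 libraries and drawn towards a trend across genes. It is therefore not the spread between the 3 mice of a group alone. Intervals for single values are not given.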

Additional observations from a re-analysis of the deposited data

Results flagged for a closer look

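The effect of cGAMP differed between the tumour types, by an interaction term in limma with Benjamini-Hochberg adjustment, in 346 genes, and 34 of the genes named above were among them. Values are the cGAMP effect in implanted tumour ECs minus that in MMTV-PyMT tumour ECs on the log2(FPKM + 1) scale, each resting on 3 libraries in each of 4 groups, and no cause was tested. They are given by gene on the deposited scale only. Over all genes, total-read scaling took the positive calls from 258 to 145 and the negative calls from 88 to 158.

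A negative value means a lesser rise or a greater fall with cGAMP in the implanted tumours. It was found for the chemokines Cxcl9 (−2.64) and Cxcl10 (−1.66) and for the immunity-related GTPases Iigp1 (−2.64), Igtp (−2.43), Tgtp1 (−2.28), Irgm2 (−2.18) and Irgm1 (−1.5). The guanylate-binding genes Gbp2 (−1.65), Gbp7 (−1.32) and Gbp5 (−1.27) and the interferon-stimulated genes Ifit1 (−1.84) and Isg15 (−1.31) were also negative. All of these had a positive effect in both tumour types. Exoc3l2 (−2.18), the tip-cell gene Esm1 (−1.35) and the arterial gene Gja5 (−1.15) were negative with an effect of −1.8, −1.08 and −0.78 in the implanted and of 0.38, 0.27 and 0.37 in the MMTV-PyMT tumours.

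A positive value means a greater rise or a lesser fall in the implanted tumours. It was found for Ifit1bl1 (2.77), Ido1 (2.7), Il15 (2.63), Mxd1 (2.61), Ms4a6b (2.59), Phf11b (2.11), Ms4a6d (1.85), Bmp2 (1.79) and Oas3 (1.43). The death genes Bcl2l11 (1.4), Casp1 (1.14) and Casp8 (1.05) were positive, as were the kinase gene Tbk1 (1.09), the NF-kB inhibitor gene Tnip1 (1.04), Icam1 (1.04) and H2-DMb1 (1.06). Of these, Casp8, Tbk1, Tnip1, Icam1 and H2-DMb1 stood just above the 2-fold limit. The serpin Serpinb1a (1.19), the ligand Pgf (1.12) and the matrix proteoglycan gene Dcn (1.31) completed the set. The effect in the implanted tumours was positive for all of these, and that in the MMTV-PyMT tumours was below 0 for Ido1 (−0.15), Bcl2l11 (−0.28), H2-DMb1 (−0.61), Pgf (−0.46) and Dcn (−0.40). The fibroblast markers to which Dcn belongs summed to 352 to 387 FPKM in the implanted PBS libraries and to 372 to 860.1 FPKM in the implanted cGAMP libraries. The sum of 860.1 was that of implanted library 2, without which the Dcn difference under cGAMP was −0.33.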

How the results depend on the processing

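Of the 156 named genes that were called for the difference under cGAMP, 116 kept that call in every alternative that tested them. The other 40 lost it in at least 1, and none changed sign. The 1451 calls under cGAMP, 981 higher and 470 lower, became 2505, 1514 and 991 with a pseudocount of 0.1, 2571, 1530 and 1041 with voom, 910, 609 and 301 with a mean of at least 5 FPKM required, which tests fewer genes, and 7122, 3636 and 3486 with no fold limit. Total-read scaling gave 553 higher and 921 lower. The 1025 calls under PBS became 1974, 2028, 673 and 6361 with the pseudocount, voom, filter and no fold limit in turn. The 346 calls on the difference of the effects became 540 with the pseudocount, 222 with the filter and 1546 with no fold limit. The 668 genes called the same way under both injections became 1217 with the pseudocount, 1235 with voom and 4231 with no fold limit. Leaving out 1 library at a time gave 1205 to 1662 calls under cGAMP, 828 to 1099 of them higher and 377 to 568 lower, 944 to 1119 under PBS, 299 to 437 on the difference of the effects and 586 to 719 under both. No source states whether the replicate numbers pair the samples, and the main fit did not treat them as pairs. Same-numbered implanted and MMTV-PyMT cGAMP libraries had deviations from their group means correlated at −0.345, −0.317 and −0.039. Since each deviation is taken from a mean of only 3 libraries, these values cannot decide whether the samples were paired. A replicate block gave 1447 calls under cGAMP, 978 higher and 469 lower. Some uncalled genes near 0 changed sign. Under quantile normalization Akt1 was at −0.19, Col4a1 at −0.18, Iigp1 at −0.05, Kdr at −0.25 and Mx2 at −0.03, and under total-read scaling Akt1 was at −0.20, Irf3 at −0.20, Kdr at −0.17, Pdgfra at −0.01 and Dcn at −0.24. Dcn was at −0.01 with voom. With 1 library left out, Dcn ran from −0.33 without implanted library 2 to 0.34 without implanted library 3, Pdgfra from −0.06 to 0.53 without the same libraries, and Tnf from −0.22 without implanted library 2 to 0.36 without MMTV-PyMT library 1. The causes of these shifts were not tested. With 3 libraries a group and 9317813 reads in the shallowest of the 6, low genes are the least precise.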
